A study of Mus musculus with 30 samples.

Results

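The liver genes described here encode acute-phase plasma proteins and were chosen by name: the orosomucoids Orm1, Orm2 and Orm3, the serum amyloid A genes Saa1, Saa2, Saa3 and Saa4, lipocalin-2 (Lcn2), haptoglobin (Hp) and hemopexin (Hpx). Of these 10 genes, 9 had a probe set annotated to that gene alone, among 22180 such genes and 25341 probe sets named by a gene. Saa1 had none. Its only probe set was shared with Saa2, and its value is given below as that of the shared Saa1 and Saa2 row. Orm3 was among the candidate genes that the study selected on these same arrays, so that its changes are not independent evidence for the list.

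Each of 30 male C57Bl/6NCr mice gave liver RNA for 1 Affymetrix gene array, and no animal gave more than 1. Undernourished dams received 40% fewer calories in late pregnancy and their offspring form the UN groups, whereas dams fed freely gave the NN groups. Offspring of cohort 1, 3 NN and 3 UN, were 9 weeks old and had eaten chow. Those of cohort 2, 4 per nutrition group, were 17 weeks old and had eaten a high-fat diet (HFD) for 8 weeks. Cohort 3 was 22 weeks old, with 13 weeks of HFD, and in its last 5 weeks received either vehicle (groups UN-Veh and NN-Veh, 4 each) or tauroursodeoxycholic acid (TUDCA, groups UN-TU and NN-TU, 4 each), a bile acid known as a chemical chaperone. All animals of cohorts 2 and 3 therefore received HFD, and no untreated group on chow was measured at 17 or 22 weeks. Which animals were littermates is not given in the sources used here. Values are log2 signals, on which a difference of 1 is a doubling, and levels of different genes were not compared because each probe set has its own scale.

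Acute-phase proteins are secreted mainly by hepatocytes, and their transcripts rise or fall when interleukin-6, interleukin-1 and glucocorticoids reach the liver. Orosomucoids are carriers of drugs and lipids in plasma. Inducible serum amyloid A travels with high-density lipoprotein, whereas SAA4 is the constitutively made form. Lipocalin-2 binds bacterial siderophores and so withholds iron, haptoglobin binds free haemoglobin, and hemopexin binds free haem.

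The family members lie beside each other in the mouse genome. In the RefSeq annotation of GRCm38.p6, Orm1 (chr4:63344556-63348163), Orm3 (chr4:63356069-63359506) and Orm2 (chr4:63362449-63365877) follow one another on chromosome 4, and Saa3 (chr7:46711998-46719615), Saa4 (chr7:46727992-46732603), Saa1 (chr7:46740497-46743181) and Saa2 (chr7:46751833-46754313) on chromosome 7. Hpx (chr7:105591611-105600116), Lcn2 (chr2:32384637-32387739) and Hp (chr8:109575128-109579172) lie apart. RefSeq lists Saa2 as a synonym of Saa1 and Saa1 as one of Saa2, so that these names have been exchanged in older annotations. The probe sequences were not analysed here, and signal from near-identical neighbours such as Orm2 and Orm3, or Saa1 and Saa2, cannot be told apart from that of the named gene.

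The promoter table matched 8 of the 10 genes (all but Orm1 and Hp). The 250 bases before the start that this table uses are printed for the 4 genes with the widest range of group means, Orm2, Orm3, Saa2 and Lcn2, and for Saa1, which shares a row with Saa2. Each is from RefSeq, GRCm38.p6, and reads 5′ to 3′ on the gene's strand. The table's start is the 5′ end of the gene coordinates given above for Orm2, Saa2 and Lcn2, but lies 89 bases inside them for Orm3 and 201 bases inside for Saa1, so that part of these windows is within the annotated gene. Capitals mark matches to the C/EBP-type letters TTGCNNAA on either strand. C/EBP factors are liver transcription factors with a known role at acute-phase promoters.
Orm2, chr4:63362199-63362448, plus strand: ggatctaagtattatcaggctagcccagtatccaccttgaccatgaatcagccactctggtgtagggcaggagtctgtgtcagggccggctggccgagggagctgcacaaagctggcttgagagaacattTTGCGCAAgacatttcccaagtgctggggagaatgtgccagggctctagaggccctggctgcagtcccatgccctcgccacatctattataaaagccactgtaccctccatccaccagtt
Orm3, chr4:63355908-63356157, plus strand: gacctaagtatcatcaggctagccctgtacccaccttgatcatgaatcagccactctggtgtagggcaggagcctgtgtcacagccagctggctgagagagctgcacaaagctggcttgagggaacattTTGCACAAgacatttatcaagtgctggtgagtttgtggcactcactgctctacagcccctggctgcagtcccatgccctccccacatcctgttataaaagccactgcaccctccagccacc
Saa1, chr7:46742981-46743230, minus strand: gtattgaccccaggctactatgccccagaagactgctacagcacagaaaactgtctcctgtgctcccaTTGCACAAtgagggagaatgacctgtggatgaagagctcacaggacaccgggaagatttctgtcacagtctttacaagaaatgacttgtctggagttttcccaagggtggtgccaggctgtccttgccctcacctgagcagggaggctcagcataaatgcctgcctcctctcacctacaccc
Saa2, chr7:46751583-46751832, plus strand: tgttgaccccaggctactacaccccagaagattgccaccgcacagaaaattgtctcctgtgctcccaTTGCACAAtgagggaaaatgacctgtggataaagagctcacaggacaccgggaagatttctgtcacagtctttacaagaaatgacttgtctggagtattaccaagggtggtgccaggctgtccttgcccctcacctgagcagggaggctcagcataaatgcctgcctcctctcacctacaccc
Lcn2, chr2:32387740-32387989, minus strand: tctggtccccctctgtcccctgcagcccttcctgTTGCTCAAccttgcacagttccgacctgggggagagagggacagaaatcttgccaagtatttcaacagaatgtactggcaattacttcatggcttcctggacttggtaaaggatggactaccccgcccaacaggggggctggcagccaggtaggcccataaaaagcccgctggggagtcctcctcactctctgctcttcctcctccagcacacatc
The Orm2 and Orm3 windows were 89.0% identical over 245 aligned bases, and the Saa1 and Saa2 windows 95.6% over 249. The C/EBP-type letters were present in 8 of 8 member windows and in 9.56% of the 32851 windows of this length in the table. Counted from the table's start, the match of Orm2 began 120 bases before it and that of Orm3 at 121, and those of Saa1 and Saa2 at 182 and 183. The Saa1 match is thus inside the annotated gene. Saa3, Saa4 and Hpx, whose group means varied less, held the letters too. The start used for Saa3 lies 3939 bases inside its gene coordinates, so that its whole window is within the annotated gene. The STAT-type letters TTCNNNGAA on either strand were in 0 of 8 member windows against 7.02% of all, GGG and CC with 5 bases between them, an NF-kB-type pattern, on either strand in 4 of 8 (Saa1, Saa2, Saa4 and Lcn2) against 45.8%, and the TATA-box letters TATAAA on the gene's strand in 2 of 8, those of Orm2 and Orm3, against 7.59%. No match to 1 motif overlapped a match to another in these windows. The windows of paralogs share sequence, so these matches are not separate observations, and the letters were chosen with the genes known.

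Array quality limits the 17-week results. The median correlation of an array with the others was 0.977 to 0.985 for 28 arrays, but 0.837 for UN replicate 14 of 17 weeks and 0.958 for UN replicate 13. Over all probe sets the signals of replicate 14 had an SD of 1.48, against 1.90 to 2.01 in the other arrays. Its values thus lie on a narrower scale, Orm3 included. In replicate 14 the mean of 10 hepatocyte markers was 8.70, against 10.70 to 11.27 in the other arrays, and in replicate 13 the mean of 13 macrophage and Kupffer cell markers was 7.43, against 5.42 to 6.83. The main values at 17 weeks are therefore also given without these arrays. The mean of 12 neutrophil markers was 3.20 to 3.68 in all 30 arrays, below each array's median signal (4.11 to 4.25). In whole liver, fewer cells of a type and less RNA per cell cannot be told apart.

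Orm3 was high in UN livers under HFD without TUDCA and low in the other groups. At 9 weeks its log2 signal was 3.61, 4.04 and 3.75 in NN and 4.41, 4.09 and 3.83 in UN. At 17 weeks it was 3.59, 4.04, 3.78 and 4.62 in NN and 5.36, 5.53, 5.55 and 5.35 in UN. The groups overlapped at 9 weeks and did not overlap at 17 weeks, where all 4 UN arrays, replicates 13 and 14 included, lay above all NN arrays. At 22 weeks it was 3.54, 4.17, 4.29 and 4.85 in NN-Veh and 5.35, 6.14, 5.83 and 6.28 in UN-Veh. With TUDCA it was 3.82, 3.74, 3.95 and 4.14 in NN-TU and 3.96, 3.66, 3.84 and 3.82 in UN-TU. All UN-Veh arrays lay above all arrays of the other 3 groups of that cohort, while UN-TU lay within the range of the NN groups. By group mean, UN-Veh (5.90 ± 0.41, SD, n = 4) was followed by UN at 17 weeks (5.45 ± 0.11, n = 4), a step of 0.45 that did not exceed the sum of both SDs. The next step, of 1.24 to NN-Veh (4.21 ± 0.54, n = 4), exceeded it, and none of the 5 steps from there down to NN at 9 weeks (3.80 ± 0.22, n = 3) did. These 6 lower means lie at or below the array medians of 4.11 to 4.25, and no detection value was used, so that where Orm3 was not above background each fold below is a lower bound.

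Orm2 had the same highest groups but wider spread. At 17 weeks its log2 signal was 6.68, 7.42, 8.08 and 7.09 in NN and 8.75, 8.69, 10.03 and 6.90 in UN, and the groups overlapped only through UN replicate 14, the lowest UN array. At 22 weeks it was 7.59, 8.36, 7.15 and 8.38 in NN-Veh and 8.45, 8.71, 8.72 and 9.95 in UN-Veh. It was 6.89, 7.63, 6.99 and 6.94 in NN-TU and 8.08, 7.37, 7.31 and 6.98 in UN-TU. UN-Veh lay above the other 3 groups of the cohort without overlap. At 9 weeks it was 6.52, 6.49 and 6.55 in NN and 7.38, 6.18 and 6.61 in UN, with overlap. The group means ran from 8.96 ± 0.67 in UN-Veh to 6.52 ± 0.03 in NN at 9 weeks, and none of the 7 steps between neighbours in this order exceeded the sum of both SDs.

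Orm1 was flat in comparison. Its group means covered a range of 0.70, against 2.44 for Orm2 and 2.1 for Orm3. It was between 10.29 and 10.49 in the 6 arrays of 9 weeks and between 9.48 and 10.66 in the 16 arrays of 22 weeks. At 17 weeks it was 9.69, 9.75, 9.87 and 9.66 in NN and 10.14, 10.25, 10.37 and 8.17 in UN. UN replicate 14 thus set the UN mean of that age below 3 of its 4 arrays.

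**Figure D1:**
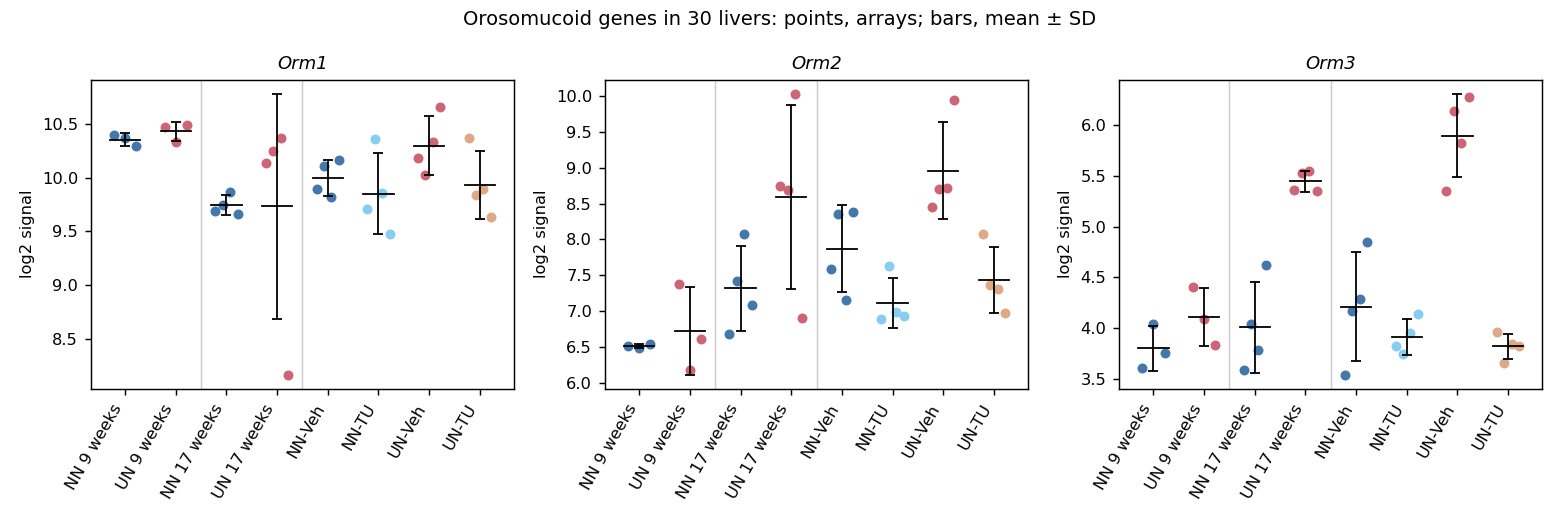
Log2 signal (y axis) of Orm1, Orm2 and Orm3 in each array (points) of the 8 groups (x axis), with the mean and SD as bars, NN in blues and UN in reds, and grey lines between cohorts. Orm3 in UN at 17 weeks (5.35 to 5.55) and in UN-Veh (5.35 to 6.28) lies above all other arrays, and the low Orm1 array of UN at 17 weeks (8.17) is replicate 14.

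Saa2, an inducible serum amyloid A gene, was lowest before HFD. Its log2 signal was 5.88, 4.61 and 5.45 in NN and 6.15, 4.76 and 5.08 in UN at 9 weeks. It was 7.28, 7.52, 7.65 and 6.40 in NN and 8.09, 8.38, 9.37 and 5.97 in UN at 17 weeks. All NN arrays of 17 weeks lay above those of 9 weeks, and UN replicate 14 was the only UN array at 17 weeks below 8. At 22 weeks Saa2 was 7.17, 7.57, 7.41 and 8.07 in NN-Veh and 7.69, 8.27, 8.09 and 9.62 in UN-Veh. It was 6.77, 6.90, 6.73 and 6.58 in NN-TU and 7.96, 7.33, 7.71 and 6.86 in UN-TU. NN-TU lay below NN-Veh without overlap, whereas UN-TU overlapped UN-Veh in 2 arrays. Between neighbours in the order of group means, only the step of 1.41 from NN-TU (6.74 ± 0.13) to UN at 9 weeks (5.33 ± 0.73) exceeded the sum of both SDs.

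The row shared by Saa1 and Saa2 had the same highest group, with a mean of 9.06 ± 0.81 in UN-Veh, but a narrower range of group means (1.99 against 3.11 for Saa2). Saa3, which in mice is made by macrophages and adipocytes as well as in liver, was between 5.02 and 6.83 in 29 arrays and was 8.36 in UN replicate 13 of 17 weeks, the array with the highest macrophage marker mean. The part of macrophages in that value was not tested. Saa4 was between 10.74 and 11.68 in 29 arrays and 8.71 in UN replicate 14.

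Lcn2 was lowest at 9 weeks and highest in UN-Veh. Its log2 signal was 5.18, 4.97 and 5.14 in NN and 5.16, 4.71 and 4.81 in UN at 9 weeks. It was 5.76, 6.12, 6.30 and 6.11 in NN and 7.19, 7.28, 8.78 and 6.19 in UN at 17 weeks. No array of 17 weeks overlapped those of 9 weeks, and UN replicate 14 was the only UN array within the NN range at 17 weeks. At 22 weeks it was 6.23, 6.94, 6.43 and 7.0 in NN-Veh and 6.86, 7.69, 7.25 and 8.27 in UN-Veh. It was 6.02, 6.71, 6.73 and 6.23 in NN-TU and 7.75, 7.01, 6.99 and 6.88 in UN-TU. All UN-TU arrays lay above all NN-TU arrays, unlike Orm3, for which these groups overlapped. In the order of group means, UN-Veh (7.52 ± 0.61), UN at 17 weeks (7.36 ± 1.07) and UN-TU (7.16 ± 0.40) came first, and only the step of 0.98 from NN at 17 weeks (6.07 ± 0.23) to NN at 9 weeks (5.09 ± 0.11) exceeded the sum of both SDs.

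Hp and Hpx varied little outside 1 array, but near the top of the scale, whose highest value was 12.89 and where a rise may be compressed. Hp was between 11.38 and 12.16 and Hpx between 11.15 and 12.03 in 29 arrays, and UN replicate 14 of 17 weeks was at 9.28 and 9.08. The range of their group means, 0.53 and 0.59, came from the UN group that holds this array.

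**Figure D2:**
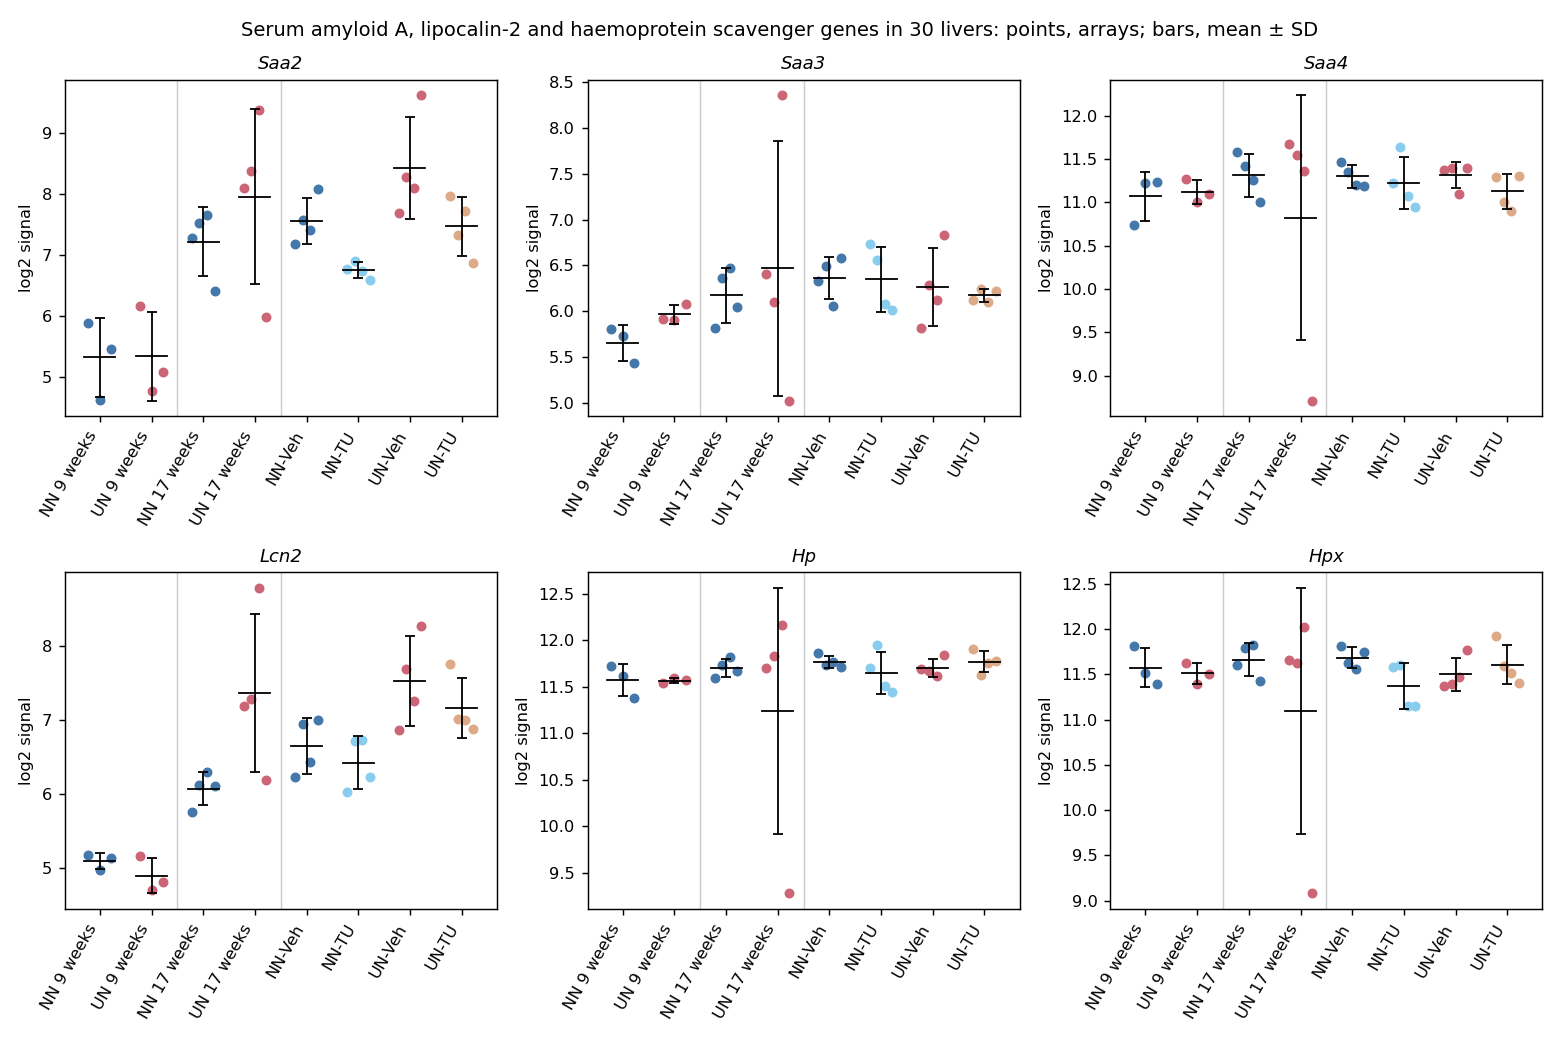
Log2 signal (y axis) of Saa2, Saa3, Saa4, Lcn2, Hp and Hpx in each array (points) of the 8 groups (x axis), with the mean and SD as bars and grey lines between cohorts. Saa2 and Lcn2 are lowest at 9 weeks, while Saa4, Hp and Hpx are level apart from UN replicate 14 of 17 weeks (8.71, 9.28 and 9.08).

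The first comparison asked whether UN alters these genes before HFD. At 9 weeks 0 of the 9 members passed an adjusted p under 0.05 (limma, Benjamini-Hochberg over 25341 probe sets), as did 0% of all probe sets, and 1 passed an unadjusted p under 0.05 in the higher direction against 1.75% of all probe sets. This was Saa3, at 5.80, 5.73 and 5.43 in NN and 5.91, 5.90 and 6.08 in UN, higher by 0.31 (SE 0.13, adjusted p = 1). Its groups did not overlap, as was the case in the higher direction for 4.19% of all probe sets. Orm3 differed by 0.31 (95% CI -0.06 to 0.69) and Lcn2 by -0.20 (95% CI -0.51 to 0.11). The median difference of the members was 0.05, and that of all probe sets was -0.00.

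At 17 weeks, after 8 weeks of HFD, 0 of 9 members passed the adjusted p, as did 0% of all probe sets, and 2 passed the study's thresholds (at least 2-fold with an unadjusted p under 0.05), both higher in UN, against 0.0789% of all probe sets. Orm3 was 2.71-fold higher (log2 difference 1.44, SE 0.22, adjusted p = 0.721, limma) and Lcn2 2.44-fold higher (1.29, SE 0.47, adjusted p = 0.721). Orm3 was the 1 member whose groups did not overlap, against 1.49% of all probe sets. Orm2 was higher by 1.27 (SE 0.60) and Saa2 by 0.74 (SE 0.65), within the error of this group. For the shared Saa1 and Saa2 row the difference was 0.04 (SE 0.53). The median difference of the members was 0.30, against -0.05 over all probe sets, but -0.22 against -0.08 without UN replicate 13 and 0.78 against 0.01 without UN replicate 14.

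Without UN replicate 14, in which hepatocyte markers were low, 4 members were higher past the study's thresholds, against 0.0592% of all probe sets: Orm2 at 1.84, Orm3 at 1.47, Saa2 at 1.4 and Lcn2 at 1.68 as log2 differences. Their adjusted p-values were 0.527, 0.249, 0.712 and 0.519. Without UN replicate 13, in which macrophage markers were high, 1 member passed them, against 0.0513%, Orm3 at 1.41, and Lcn2 was higher by 0.82. Without both, Orm2 was higher by 1.4, Orm3 by 1.44, Saa2 by 1.02 and Lcn2 by 1.17, and the lowest adjusted p of these genes was 0.0857 for Lcn2. Again 4 members passed the study's thresholds, against 0.0829%. Orm1, Orm2, Orm3, Saa2 and Lcn2 did not overlap between the groups without replicate 14, 5 of 9 against 3.65%, and Orm3 alone without replicate 13, 1 of 9 against 2.30%. Orm3 thus moved least with the choice of arrays. Orm1, at -0.01 with all arrays, was 0.51 without replicate 14 and 0.46 without both, with adjusted p-values of 0.597 and 0.411.

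**Figure D3:**
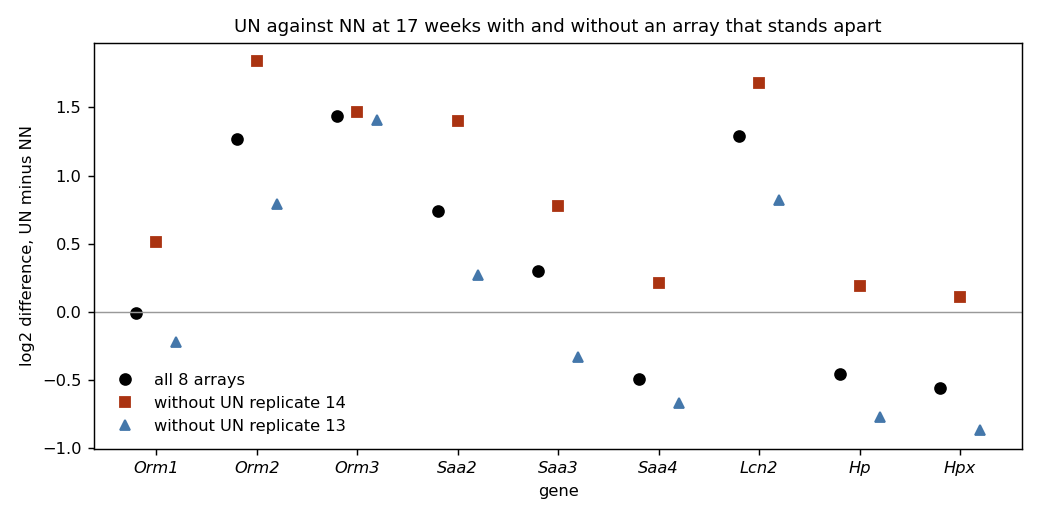
Log2 difference of UN minus NN at 17 weeks (y axis) of each gene (x axis) with all 8 arrays (circles), without UN replicate 14 (squares) and without UN replicate 13 (triangles). Orm3 stays between 1.41 and 1.47, while Orm2 runs from 0.79 to 1.84.

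At 22 weeks, after 13 weeks of HFD, Orm3 was 3.22-fold higher in UN-Veh than in NN-Veh (log2 difference 1.69, SE 0.21, adjusted p = 0.00107, limma), a call that was lost with the study's own test in place of limma (adjusted p = 0.151). It was the 1 of 9 members past the adjusted p in the higher direction, against 0.312% of all probe sets. Orm2 was 2.13-fold higher (1.09, SE 0.30, adjusted p = 0.142) and passed the study's thresholds with Orm3, 2 of 9 against 0.103%. These 2 genes were also those whose groups did not overlap, against 4.72% of all probe sets. Lcn2 was higher by 0.87 (SE 0.25, adjusted p = 0.175) and Saa2 by 0.86 (SE 0.29, adjusted p = 0.277), which made 4 of 9 members higher at an unadjusted p under 0.05, against 5.89%.

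The remaining members did not follow. Orm1 differed by 0.31 (95% CI -0.06 to 0.67), Saa3 by -0.10 (95% CI -0.47 to 0.27), Saa4 by 0.01 (95% CI -0.26 to 0.29), Hp by -0.06 (95% CI -0.28 to 0.15) and Hpx by -0.19 (95% CI -0.45 to 0.08). These intervals leave room for a change, but those of Saa4 and Hp end below 0.30 on either side. The shared Saa1 and Saa2 row differed by 0.40 (SE 0.34). The median difference of the members was 0.31, against 0.02 over all probe sets.

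TUDCA in NN livers moved no member past the adjusted p, 0 of 9 against 1.06% of all probe sets in the lower and 0.292% in the higher direction. Saa2 was lower by -0.81 (SE 0.29, adjusted p = 0.171) and was the 1 member whose groups did not overlap, against 5.80%. Orm2 was lower by -0.76 (SE 0.30, adjusted p = 0.219) and Hpx by -0.32 (SE 0.13, adjusted p = 0.224), so that 3 members were lower at an unadjusted p under 0.05, against 11.5% of all probe sets. The shared Saa1 and Saa2 row was lower by -1.05 (SE 0.34, adjusted p = 0.122). Orm3, already low in NN-Veh, differed by -0.30 (95% CI -0.73 to 0.13).

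TUDCA in UN livers lowered Orm3 and Orm2. Orm3 was 4.22-fold lower in UN-TU than in UN-Veh (log2 difference -2.08, SE 0.21, adjusted p = 3.67e-05, limma) and Orm2 2.88-fold lower (-1.52, SE 0.30, adjusted p = 0.0275). These were 2 of 9 members past the adjusted p in the lower direction, against 0.268% of all probe sets, and the groups of both did not overlap, against 3.68%. Both also passed the study's thresholds, 2 of 9 against 0.103%. Saa2 was lower by -0.95 (SE 0.29, adjusted p = 0.189) and Lcn2 by -0.36 (95% CI -0.89 to 0.17). For the shared Saa1 and Saa2 row the difference was -0.69 (SE 0.34, adjusted p = 0.490). Orm1 was lower by -0.37 (SE 0.17, adjusted p = 0.465), so that 4 of 9 were lower at an unadjusted p under 0.05, against 5.64%. Saa3, Saa4, Hp and Hpx lay between -0.19 and 0.11. The median of the members was -0.36, against -0.01 over all probe sets.

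The call of Orm2 is marginal. It was lost when any 1 of UN-Veh replicates 24, 25 and 26 or UN-TU replicates 28, 29 and 30 was left out, where the adjusted p was 0.0540 to 0.0833 and the difference -1.19 to -1.61, and it held without UN-Veh replicate 23 or UN-TU replicate 27. It was also lost in 5 of the other settings given in the closing section. The call of Orm3 held when each of the 8 animals was left out in turn, and was lost with the study's own test (adjusted p = 0.151 there too).

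Both TUDCA comparisons and the nutrition comparison share their UN-Veh or NN-Veh animals, so their values are placed side by side without a test of likeness. Against NN-TU, Orm3 in UN-TU differed by -0.09 (95% CI -0.52 to 0.34) and Orm2 by 0.32 (95% CI -0.31 to 0.95), whereas Lcn2 was higher by 0.73 (SE 0.25, adjusted p = 0.154) and Saa2 by 0.72 (SE 0.29, adjusted p = 0.216). The Lcn2 groups did not overlap, 1 of 9 members against 5.87% of all probe sets. Against NN-Veh, UN-TU differed by -0.39 (95% CI -0.82 to 0.04) for Orm3, by -0.44 (95% CI -1.07 to 0.19) for Orm2 and by 0.51 (95% CI -0.03 to 1.04) for Lcn2. No member passed the adjusted p in either comparison (0 of 9, where 0.347% and 0.15% of all probe sets passed in the higher and 0.126% and 0.110% in the lower direction).

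Whether the TUDCA change differed between UN and NN livers was tested by the interaction term. Orm3 in NN-Veh (4.21) already lay at the array medians, so that a fall in NN may not have been measurable, and its part in the interaction was not tested. For Orm3 the TUDCA change was lower in UN than in NN by -1.78 (SE 0.29, 95% CI -2.38 to -1.17), with an adjusted p = 0.0509 (limma) that missed the threshold. No member passed it, nor did any probe set (0%). It was 1 of 9 members past the study's thresholds in that direction, against 0.110% of all probe sets. The adjusted p passed without any 1 of NN-Veh replicate 18, NN-TU replicate 19, UN-Veh replicate 23 and UN-TU replicates 29 and 30 (0.00679 to 0.0458). For Orm2 the interaction was -0.77 (95% CI -1.66 to 0.13), for Saa2 -0.14 (95% CI -1.01 to 0.73) and for Lcn2 -0.13 (95% CI -0.89 to 0.62). A difference of the TUDCA change between UN and NN was thus not resolved for these 3 genes. For Hpx it was 0.43 (SE 0.18, adjusted p = 0.350).

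**Figure D4:**
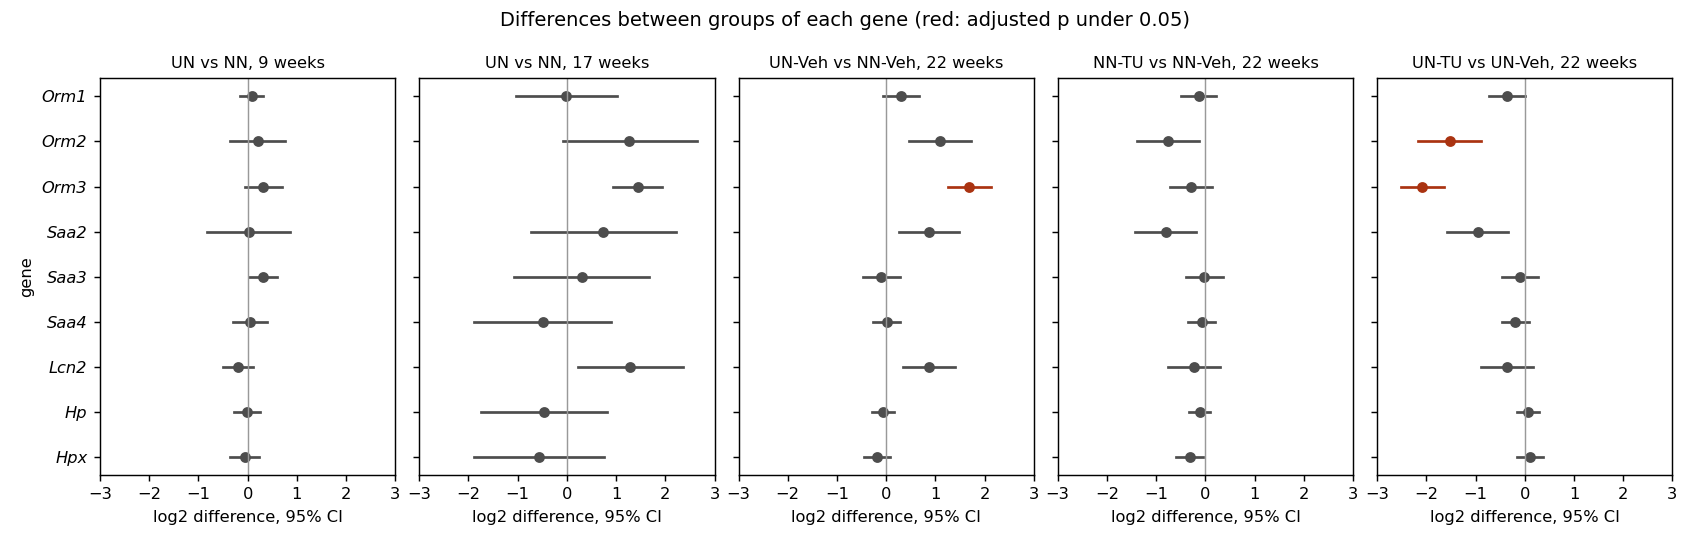
Log2 difference with its 95% confidence interval (x axis) of each gene (y axis) in 5 comparisons, the first-named group minus the second, with red marking an adjusted p under 0.05. Orm3 in UN-Veh against NN-Veh (1.69) and Orm3 and Orm2 in UN-TU against UN-Veh (-2.08 and -1.52) are the red points, and Saa4 and Hp lie near 0 in cohort 3.

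The longitudinal comparison set 17 weeks against 9 weeks, where age, HFD and cohort change together and cannot be told apart. In UN livers Lcn2 was 5.54-fold higher (log2 difference 2.47, SE 0.42, adjusted p = 0.0449, limma) and Orm3 2.52-fold higher (1.34, SE 0.22, adjusted p = 0.0371), 2 of 9 members against 0.0316% of all probe sets. Neither gene overlapped between the ages, 2 of 9 against 2.64%. With Saa2 (2.62, SE 0.64, adjusted p = 0.263) and Orm2 (1.87, SE 0.55, adjusted p = 0.423), 4 of 9 passed the study's thresholds, against 0.241%. In the shared Saa1 and Saa2 row the difference was smaller than that of Saa2, at 1.06 (SE 0.51, adjusted p = 0.594). Without UN replicate 14, Orm2 (2.43, adjusted p = 0.00538) and Saa2 (3.28, adjusted p = 0.00107) passed the adjusted p as well, which made 4 of 9, against 1.03% of all probe sets in either direction.

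These calls depend on single animals. Neither Orm3 nor Lcn2 passed the adjusted p without UN replicate 4, 5 or 6 of 9 weeks or without replicate 11 or 12 of 17 weeks, and Orm3 did not pass without replicate 13. Over these settings the adjusted p of Orm3 was 0.0688 to 0.278 and its difference 1.20 to 1.48. That of Lcn2 was 0.0792 to 0.273, with a difference of 2.38 to 2.60.

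In NN livers Saa2 was 3.74-fold higher at 17 than at 9 weeks (1.90, SE 0.64, adjusted p = 1) and Lcn2 1.97-fold higher (0.98, SE 0.42, adjusted p = 1), while Orm3 differed by 0.21 (95% CI -0.27 to 0.68). Of the 9 members 0 passed the adjusted p, against 0% of all probe sets in the higher and 0.0158% in the lower direction, and 1, Saa2, passed the study's thresholds, against 0.134%. Orm2, Saa2, Saa3 and Lcn2 were higher without overlap, 4 of 9 against 5.17%, and Orm1 was lower without overlap, 1 of 9 against 4.81%. In the shared Saa1 and Saa2 row the difference was 0.78 (SE 0.51), with overlap. This fit shares its estimate of spread with the UN arrays. Without UN replicates 13 and 14, Saa2 (adjusted p = 0.0361), Lcn2 (adjusted p = 0.00478) and Orm1 (-0.61, adjusted p = 0.00775) passed, with the same differences for NN, 3 of 9 against 0.359% of all probe sets in either direction.

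The rise with age and diet was larger in UN than in NN by 1.13 for Orm3 (SE 0.31, adjusted p = 0.893) and by 1.49 for Lcn2 (SE 0.59, adjusted p = 0.893), 2 of 9 members past the study's thresholds against 0.107% of all probe sets. Neither passed the adjusted p, nor did any probe set (0%). For Saa2 the difference between the rises was 0.72 (95% CI -1.23 to 2.66), and for the shared Saa1 and Saa2 row 0.28 (95% CI -1.28 to 1.84). Without UN replicate 14 these were 1.16 for Orm3, 1.88 for Lcn2, 1.38 for Saa2 and 1.63 for Orm2 (adjusted p = 0.980 for each, limma), 4 of 9 past the study's thresholds against 0.130%. Without UN replicate 13 they were 1.09, 1.02, 0.25 and 0.59 (adjusted p = 0.853, 0.853, 0.937 and 0.854), and without both 1.13, 1.37, 1.0 and 1.19 (adjusted p = 0.778, 0.186, 0.873 and 0.802). The median of the members was -0.01, against -0.07 over all probe sets, with -0.30 against -0.09 without replicate 13 and 0.47 against 0.01 without replicate 14.

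Within groups, some members moved together from animal to animal. Deviations from the group means were correlated over the 16 arrays of 22 weeks, for 36 pairs of members, with exact two-sided permutation tests that exchange arrays within groups. All these values come from the same arrays, which share their RNA extract and normalization, and the pairs are not independent. Of the 36 pairs 34 had a positive r and 16 an adjusted p under 0.05 over the 36 pairs. The share of pairs of other probe sets past it was not computed. Fewer pairs passed by Spearman's rho. There Orm3 with Saa2, Orm3 with Lcn2 and Hp with Hpx did not pass (adjusted p = 0.219, 0.0692 and 0.100). Nor did Orm1 with Hpx, Saa3 with Hpx, Orm2 with Saa3 and Saa2 with Saa3 (adjusted p = 0.0575, 0.0660, 0.0848 and 0.0592). The 95th percentile of r with all probe sets ran from 0.47 for Orm3 to 0.69 for Hp. Pearson's r was 0.86 for Orm2 and Lcn2 (exact p = 7.08e-04, adjusted p = 0.00637, Spearman's rho 0.86, exact p = 4.13e-04), 0.84 for Orm2 and Saa2 (exact p = 5.67e-04, adjusted p = 0.00637, rho 0.85, exact p = 0.00140) and 0.83 for Saa2 and Lcn2 (exact p = 2.35e-04, adjusted p = 0.00499, rho 0.81, exact p = 0.00142). Without the 2 arrays farthest from the median of the first-named gene, these were 0.75, 0.70 and 0.70.

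Among the 25340 other probe sets, Lcn2 ranked 3rd and Saa2 6th by their within-group r with Orm2, and Orm1 ranked 10th (r = 0.83, exact p = 2.77e-04, adjusted p = 0.00499, rho 0.80, exact p = 3.01e-04, and 0.81 without the 2 arrays farthest for Orm1). The median r of Orm2 with all probe sets was 0.07. Orm1 thus followed Orm2 from animal to animal although its group means hardly differed.

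Orm3 followed less closely. Its r was 0.45 with Orm2 (exact p = 0.192, adjusted p = 0.256, rho 0.33, exact p = 0.297) and 0.17 with Orm1 (exact p = 0.474, adjusted p = 0.502, rho 0.04, exact p = 0.905). Its r was 0.65 with Saa2 and 0.65 with Lcn2 (exact p = 0.0208 and 0.0154, adjusted p = 0.0467 and 0.0455, rho 0.49 and 0.65, exact p of rho 0.0972 and 0.0250). Both were 0.63 without the 2 farthest arrays. Whether the correlations of Orm2 and of Orm3 differ was not tested.

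Saa4 moved with Hp (r = 0.84, exact p = 0.00122, adjusted p = 0.00732, rho 0.79, exact p = 0.00177, and 0.67 without the 2 farthest arrays) and had an r of 0.52 with Hpx, 0.46 with Orm1, 0.38 with Saa3, 0.31 with Orm2, 0.23 with Lcn2, 0.04 with Saa2 and -0.30 with Orm3. Whether these differ from its r with Hp was not tested. Hp and Hpx had an r of 0.76 (exact p = 0.0103, adjusted p = 0.0339, rho 0.66, exact p = 0.0417, and 0.72 without the 2 farthest arrays). Hpx also had an r of 0.75 with Orm1, 0.67 with Orm2, 0.63 with Saa2 and 0.69 with Saa3 (exact p = 0.00864, 0.00761, 0.00681 and 0.019, adjusted p = 0.0311, 0.0304, 0.0304 and 0.0456, rho 0.70, 0.60, 0.62 and 0.67). Without the 2 arrays farthest for the other gene of each pair, not for Hpx, r was 0.60, 0.45, 0.51 and 0.60. By rho the pairs with Orm1 and Saa3 did not pass (adjusted p = 0.0575 and 0.0660). Among the 25340 other probe sets, Orm1, Orm2, Saa2 and Saa3 ranked 505th, 1210th, 1689th and 1073rd by r with Hpx. The 95th percentile of r for Hpx was 0.67.

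The 9-week and 17-week cohorts hold other animals. Over their 12 arrays other than UN replicates 13 and 14, 25 of 36 pairs had a positive r and 0 passed the adjusted p, and Orm2 with Lcn2 was the highest pair, at 0.90 (exact p = 0.00463, adjusted p = 0.167, rho 0.81, exact p = 0.00579, and 0.82 without the 2 farthest arrays). Orm2 with Saa2 was 0.61, Saa2 with Lcn2 0.61 and Orm1 with Orm2 0.71, with adjusted p = 0.303 for each by the exact permutation test. Orm3 had an r of 0.14 with Orm2 and -0.35 with Saa2, and Saa4 had -0.58 with Hp, opposite in sign to 22 weeks. With replicates 13 and 14 included, 35 of 36 pairs were positive and the median r rose from 0.31 to 0.79, since replicate 14 was lowest in its group for all 9 members and replicate 13 highest for 8.

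In other groups, too, 1 animal was often highest for most members. UN-Veh replicate 26 was highest of its 4 animals for 9 of 9 members, with 9.95 for Orm2, 6.28 for Orm3, 9.62 for Saa2 and 8.27 for Lcn2. Its array median was also the highest of the 4 (4.22, against 4.15 to 4.16). Marker means of hepatocytes, stellate cells, endothelium, neutrophils and T and B cells were highest in it too. Those of macrophages, bile ducts, adipocytes and pancreas were not. UN-TU replicate 27 was highest for 7 of 9, NN-Veh replicate 18 for 6 and NN-TU replicate 20 for 6. The share of all probe sets that were highest in each of these animals was not computed.

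**Figure D5:**
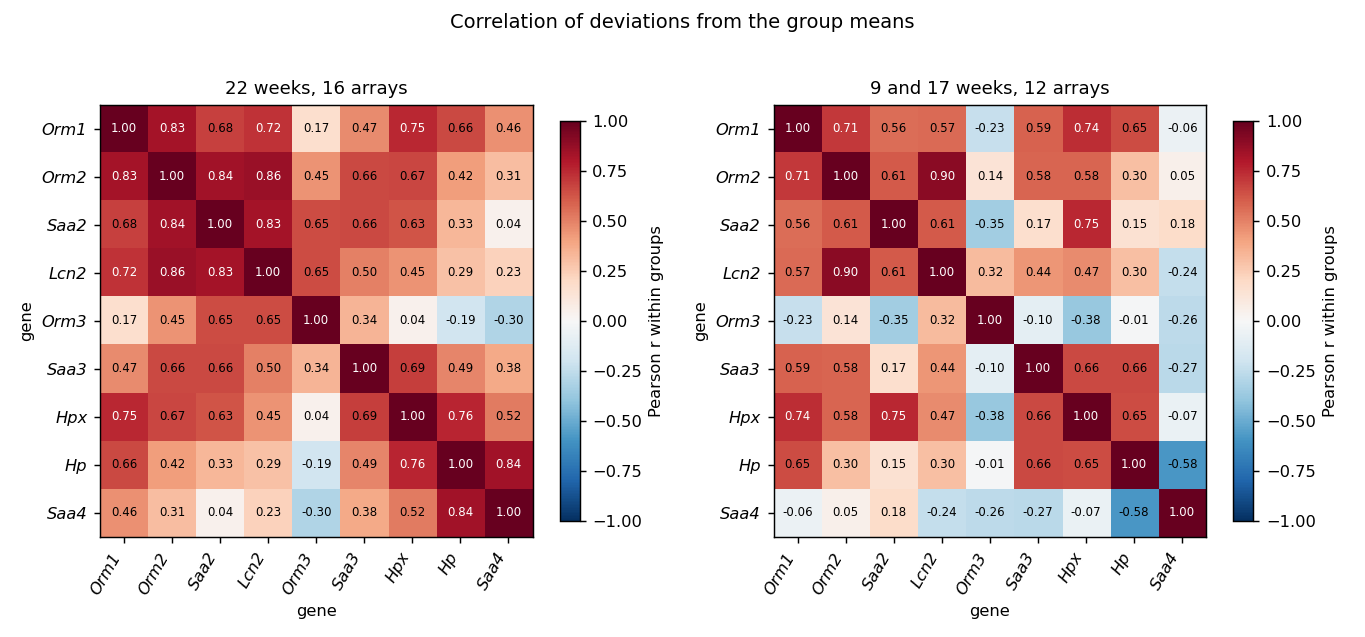
Pearson's r between genes (both axes) of the deviations of each array from its group mean, in the 16 arrays of 22 weeks and in the 12 arrays of 9 and 17 weeks other than UN replicates 13 and 14, with colour from -1 (blue) to 1 (red). The pairs of Orm1, Orm2, Saa2 and Lcn2 range from 0.68 to 0.86 at 22 weeks and those of Hpx with Orm1, Orm2 and Saa2 from 0.63 to 0.75, while Saa4 with Hp is 0.84 in the first set and -0.58 in the second.

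The genes whose mean profile over all 30 arrays was most like that of Orm1 to Orm3 were Wwtr1 (r = 0.78), Rhbg (0.76), Slc13a3 (0.74), Anxa5 (0.74) and Gstm2 (0.73), as a description across groups. For Saa2 with the shared Saa1 and Saa2 row they were Plgrkt (0.85), Anxa5 (0.82), Cd36 (0.81), Samd9l (0.81) and Hk2 (0.80), and for Hp with Hpx C4bp, Tdo2, Serping1, Clu and Ambp (0.97 each). None of these names remained among the 5 highest without UN replicates 13 and 14, where the leading genes were Limk1 (0.77), Rfk (0.87) and Ftcd (0.80), so that the order rests on those 2 arrays.

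Other acute-phase genes were measured as a wider list, of which 23 of 25 induced genes and 10 of 11 genes known to fall had a row. In UN-Veh against NN-Veh 0 of the 23 induced genes passed the adjusted p in either direction, against 0.312% higher and 0.107% lower over all probe sets, and their median was -0.14, against 0.02. The smallest p belonged to the protease inhibitor gene Serpina3n (0.26, SE 0.09, adjusted p = 0.281), the interleukin-1 receptor gene Il1r1 (-0.46, SE 0.19, adjusted p = 0.439) and the metallothionein gene Mt1 (-0.68, SE 0.32, adjusted p = 0.523). In UN-TU against UN-Veh 0 of 23 passed as well, and their median was 0.13, against -0.01, opposite in sign to the members' median of -0.36. There the pentraxin gene Apcs was 0.66 (SE 0.18, adjusted p = 0.115), Mt1 0.90 (SE 0.32, adjusted p = 0.284), Itih4 0.28 (SE 0.12, adjusted p = 0.395) and the C-reactive protein gene Crp 0.24 (SE 0.10, adjusted p = 0.407). At 17 weeks their median in UN against NN was -0.51, against -0.05 over all probe sets. It was -0.80 against -0.08 without UN replicate 13, -0.03 against 0.01 without UN replicate 14 and -0.10 against 0.01 without both. Of the 10 genes known to fall, 0 passed the adjusted p in these 3 comparisons.

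Of 25 measured genes of IL-6, IL-1 and NF-kB signalling, 1 fell in UN-Veh against NN-Veh. It was Il6ra, which encodes the binding chain of the interleukin-6 receptor (-0.77, SE 0.12, adjusted p = 0.00902, limma), where 0.107% of all probe sets fell. Lifr, a receptor chain of the same cytokine family, was at -0.54 (SE 0.16, adjusted p = 0.180). With TUDCA in UN, Lifr was at 0.67 (SE 0.16, adjusted p = 0.0730) and Il6ra at 0.33 (SE 0.12, adjusted p = 0.316), and 0 of 25 passed. The direction of Il6ra in UN-Veh was thus opposite to that of Orm2 and Orm3.

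Of 10 measured liver transcription factors of acute-phase promoters, 0 passed the adjusted p in these comparisons. In UN-Veh against NN-Veh Cebpa was 0.24 (SE 0.11, adjusted p = 0.479) and Stat3 -0.35 (SE 0.16, adjusted p = 0.497), and in UN-TU against UN-Veh Cebpb, an inducible C/EBP factor, was -0.33 (SE 0.15, adjusted p = 0.421). Of 10 glucocorticoid-responsive genes 1 passed the adjusted p in UN-Veh, the zinc finger gene Zbtb16 (-1.75, SE 0.21, adjusted p = 0.00107), where 0.107% of all probe sets fell. It was at 0.17 (SE 0.21, adjusted p = 0.839) with TUDCA in UN. The median of the 10 was -0.39 in UN-Veh, against 0.02. At an unadjusted p under 0.05, 3 were lower, against 3.42% of all probe sets, and 1 was higher. With TUDCA in UN the median was 0.29, against -0.01, with 3 higher and 0 lower. Their mean was 7.19 to 7.35 in UN-Veh, below NN-Veh (7.53 to 7.96) and UN-TU (7.36 to 8.33). It overlapped NN-TU (7.34 to 7.65). Of 9 measured receptors and partners of the acute-phase proteins, 0 passed in these comparisons.

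Markers of other liver cells were measured beside these results. Over the 4 groups of 22 weeks the mean of 13 macrophage and Kupffer cell markers was 6.43 to 6.83 in NN-Veh, 6.07 to 6.41 in NN-TU, 6.26 to 6.57 in UN-Veh and 6.40 to 6.55 in UN-TU. In UN-Veh against NN-Veh 2 of the 13 were higher at an unadjusted p under 0.05, against 5.89% of all probe sets, and 4 were lower, against 3.42%. Their median was -0.24, against 0.02. The part of these cells in the values of Orm3 was not tested. In NN-TU against NN-Veh 1 of the 13, Adgre1, fell (-0.70, SE 0.15, adjusted p = 0.0256), against 1.06% of all probe sets. Of the 13, 6 were lower at an unadjusted p under 0.05, against 11.5%, and their median was -0.29, against -0.04. The mean of 12 neutrophil markers was 3.33 to 3.42 in UN-Veh and 3.28 to 3.40 in NN-Veh, below the array medians in both. The mean of 10 hepatocyte markers was 10.93 to 11 in UN-Veh and 10.99 to 11.18 in NN-Veh. Of the measured markers of T and B cells (6), stellate cells (7), endothelium (6), bile ducts (4), adipocytes (6) and pancreas (4), 0 passed the adjusted p in UN-Veh against NN-Veh or in UN-TU against UN-Veh.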

How the data were processed

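Liver RNA of 30 mice in 8 groups was measured on 1 array each. The authors hybridized labelled RNA to Affymetrix mouse gene array strips and used Affymetrix Expression Console. They deposited normalized log2 signals per probe set, which run from 1.10 to 12.89. The summarization method is not given in the sources used here. Of 41345 probe sets, 25341 named by a gene in the platform annotation were tested, and 16004 without a gene were not. No 2 arrays were identical (0 pairs). The number of arrays limits the precision.

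Linear models (limma 3.58.1, R 4.3.3) were fitted per cohort, or over cohorts 1 and 2 between ages, with Benjamini-Hochberg adjustment over the 25341 probe sets. The study's thresholds used limma's p in place of the methods' ANOVA unless said otherwise. Calls were checked on simulated data. Correlations, order and figures used Python 3.11.15 (numpy 2.4.6, scipy 1.17.1, matplotlib 3.10.9). From the lists, at most 4 genes per comparison were named, those with the smallest p, and 5 genes most like each family. For Saa1, which has no row of its own, the shared row was used there. The genes, lists and comparisons were chosen with earlier results of these data known. The order of group means, the within-group permutation tests and the promoter letters were chosen after the values or sequences had been seen. Alternatives were the methods' ANOVA, other sets of arrays or probe sets, a variance trend, array weights, repeated quantile normalization, 1 shared median for all arrays and leaving arrays out.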

Additional observations from a re-analysis of the deposited data

Results flagged for a closer look

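In groups of 4 arrays, the highest or lowest value was marked when its gap to the nearest other array exceeded Dixon's 95% critical share of the group's range. Of 60 sets of gene and group 7 were marked, and chance marks about 1 in 20. UN replicate 14 of 17 weeks gave 4 of them, at 8.17 for Orm1 (next 10.14), 8.71 for Saa4 (next 11.36), 9.28 for Hp (next 11.70) and 9.08 for Hpx (next 11.63).

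The other marks were the highest Orm2 array of NN-TU, replicate 20, at 7.63 (next 6.99), the highest Lcn2 array of UN-TU, replicate 27, at 7.75 (next 7.01), and the lowest Saa4 array of UN-Veh, replicate 25, at 11.10 (next 11.38). No interaction of a member passed an adjusted p under 0.05 (0 of 9 in each of both interactions, limma).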

How the results depend on the processing

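No direction of a member called or past the study's thresholds reversed under any alternative. Counts of members past the adjusted p (limma unless said) changed as follows, with the share of all probe sets past it in either direction under the same setting in parentheses. With the methods' ANOVA the count was 0 in place of 1 in UN-Veh against NN-Veh (0.0592%), 0 in place of 2 in UN-TU against UN-Veh (0%) and 0 in place of 2 in UN at 17 against 9 weeks (0%). With all 30 arrays in 1 fit these were 1 in place of 2 in UN-TU against UN-Veh (0.0276%), 4 in place of 2 in UN between ages (1.53%) and 1 in place of 0 in UN against NN at 17 weeks (0.00395%). With only the groups compared they were 1 in place of 0 in NN-TU against NN-Veh (0.738%), 1 in UN-TU against UN-Veh (0.0987%), 0 in UN between ages (0.0434%) and 2 in place of 0 in NN between ages (0.162%). Array weights gave 2 at 17 weeks (0.0710%), 4 in UN (2.49%) and 3 in NN (0.529%) between ages. A variance trend with robust estimation gave 1 in UN-TU against UN-Veh (0.406%). All probe sets of the table gave 1 there (0.0967%) and 0 in UN between ages (0.0556%). With only the probe sets above the median mean signal, there was 1 in place of 0 for the TUDCA interaction (0.0237%), and 1 in UN between ages (0.260%), where Orm3 was filtered out, and repeated quantile normalization gave 4 in UN between ages (0.328%). Without UN replicates 13 and 14 of 17 weeks together, which leaves 2 UN arrays, the count was 4 in UN (1.97%) and 3 in NN (0.359%) between ages. Leaving out 1 array at a time gave 1 to 2 in UN-TU against UN-Veh, 0 to 1 for the TUDCA interaction and 0 to 4 in UN between ages, and left the other counts as they were. The cause of these changes was not tested.

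No paired analysis was possible because the labels number the animals from 1 to 30 and no number is shared between groups. The mean of all rows of a gene was not run as a separate setting because each measured member has 1 row of its own. With 3 or 4 arrays per group, a change that lies within the confidence intervals given could not be shown, and Orm3 lay near the array medians (4.11 to 4.25) in most groups.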
